A study of Mus musculus with 6 samples.

Results

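The genes described here are those of cholesterol synthesis, its control, fatty acid synthesis and sterol export, measured in neurospheres, which are colonies grown in suspension from neural precursor cells, here those of the adult mouse hippocampus. A list of 36 symbols defined them, and each gene was read from the transcript cluster annotated with that symbol alone, taking the cluster with the highest mean where a gene had several. In all, 34 of the 36 listed genes were measured, out of 19937 genes on the arrays. Acat2, of the entry into the mevalonate pathway, and Nr1h2, a sterol receptor, were not analysed here because no cluster carried either symbol alone. Every gene was kept, with no filter on dim clusters, and 33 of the 34 had a mean above the median cluster mean of 6.34.

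Hippocampal tissue of male C57BL/6J mice aged 8 to 12 weeks was dissociated, and the cells were grown in neurosphere medium with EGF and bFGF, with norepinephrine at 10 µM in the N group and potassium chloride at 15 mM in the K group. The neurospheres, which the labels call small, were collected on day 14, and their RNA was put on whole-transcript mouse gene arrays, 3 N and 3 K. Norepinephrine is a transmitter that acts through adrenergic receptors, and potassium chloride depolarises cells. No untreated neurospheres are among the 6 arrays, so each value compares N with K and does not show which of the treatments moved a gene. The labels call the arrays of a group biological replicates without saying whether each came from separate animals. A p-value here therefore weighs a difference against the spread between these samples, which may not be a spread between animals.

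Cholesterol is built from acetyl-CoA, first through the mevalonate pathway to farnesyl diphosphate and then through squalene and lanosterol to the finished sterol. When membrane sterol is low, Scap carries the precursors of the SREBP transcription factors, encoded by Srebf1 and Srebf2, to the Golgi for cleavage, and the released factors switch on the genes of sterol and fatty acid synthesis, whereas Insig1 and Insig2 hold Scap in the endoplasmic reticulum when sterol is plentiful. Excess sterol, as oxysterols, activates the liver X receptors, which switch on the export pumps Abca1 and Abcg1, and in the brain astrocytes load exported cholesterol onto apolipoprotein E.

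The promoters of 4 genes are shown. Srebf2, Abca1 and Apoe are the members whose N and K arrays did not overlap, a choice made on these same arrays. Hmgcs1 is the only member promoter that held the SREBP-type letters searched. Each runs 5′ to 3′ on the gene's own strand, from 250 bases before to 50 bases after the start in RefSeq's GRCm38.p6 annotation. The regions are chr13:119690101-119690400 for Hmgcs1 (plus strand), chr15:82147019-82147318 for Srebf2 (plus strand), chr4:53159846-53160145 for Abca1 (minus strand) and chr7:19699139-19699438 for Apoe (minus strand). The window for Apoe lies inside the gene's annotated span, chr7:19696244-19701310. Capitals mark matches, on either strand, to TCACNCCAC (an SREBP-type site), CCAAT (bound by NF-Y), GGGCGG (a GC box) or CACGTG (an E-box).
Hmgcs1: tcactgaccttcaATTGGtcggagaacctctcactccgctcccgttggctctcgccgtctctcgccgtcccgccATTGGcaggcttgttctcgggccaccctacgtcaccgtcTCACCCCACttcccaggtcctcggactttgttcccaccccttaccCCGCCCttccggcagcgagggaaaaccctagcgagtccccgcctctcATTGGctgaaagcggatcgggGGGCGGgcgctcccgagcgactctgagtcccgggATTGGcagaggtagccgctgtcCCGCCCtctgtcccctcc
Srebf2: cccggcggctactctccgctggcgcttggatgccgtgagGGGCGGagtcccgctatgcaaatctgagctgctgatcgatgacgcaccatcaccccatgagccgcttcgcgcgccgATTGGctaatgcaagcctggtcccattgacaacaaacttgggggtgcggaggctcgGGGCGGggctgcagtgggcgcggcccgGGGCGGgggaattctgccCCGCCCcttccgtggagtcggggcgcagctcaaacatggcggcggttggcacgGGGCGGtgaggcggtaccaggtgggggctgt
Abca1: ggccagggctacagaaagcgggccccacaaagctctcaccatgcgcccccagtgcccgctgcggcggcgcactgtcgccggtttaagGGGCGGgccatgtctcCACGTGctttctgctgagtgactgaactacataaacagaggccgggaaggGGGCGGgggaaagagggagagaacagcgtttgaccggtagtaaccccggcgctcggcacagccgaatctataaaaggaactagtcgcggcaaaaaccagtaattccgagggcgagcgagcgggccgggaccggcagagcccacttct
Apoe: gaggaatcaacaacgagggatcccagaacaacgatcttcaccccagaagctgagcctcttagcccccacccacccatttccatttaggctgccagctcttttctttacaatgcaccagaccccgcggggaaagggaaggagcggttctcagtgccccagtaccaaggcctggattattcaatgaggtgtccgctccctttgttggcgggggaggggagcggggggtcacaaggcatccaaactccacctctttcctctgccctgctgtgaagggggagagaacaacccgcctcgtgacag

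Of the 34 members, 26 had a promoter in the RefSeq table, and Fdps, Fdft1, Sqle, Stard4, Scd1, Scd2, Fads1 and Abcg1 had none there. CCAAT stood in 18 of the 26 (69.2%), against 38% of all 27025 promoters of the same length. GGGCGG was likewise in 18 of the 26 (69.2%), against 35.9%, and CACGTG in 6 (23.1%), against 7.24%. TCACNCCAC was in 1 member promoter (3.85%), that of Hmgcs1, against 1.22%. By role, all 4 mevalonate promoters and 7 of the 8 promoters of the sterol steps held CCAAT, whereas none of the 3 export promoters did. All 12 of these synthesis promoters held a GC box, and that of Apoe held none of the 4 motifs. Overlapping matches of different motifs were each counted. These matches describe letters only.

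Between N and K, the genes of sterol and fatty acid synthesis had log2 fold changes (log2FC) on both sides of 0. The export genes Apoe and Abca1 read 1.58-fold and 1.25-fold higher with N on average, without passing the test over all genes. No member passed an adjusted p of 0.05 by limma with Benjamini-Hochberg adjustment over all genes, where 31 of 19937 genes (0.155%) did. At an unadjusted P under 0.05, 3 members were higher with N, namely Ebp, Abca1 and Apoe, against 4.64% of all genes, and 0 were lower, against 3.89%. The 3 N arrays lay above the 3 K arrays for 2 members (Abca1 and Apoe), against 5.78% of all genes, and below them for 1 (Srebf2), against 7.55%, which are shares near or below the background. An exact two-sided permutation test of 3 arrays against 3 cannot give a p under 0.1 for any gene.

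On the log2 scale of the arrays, N minus K, the log2FC was above 0 for 21 members and below 0 for 13. Over all genes it was above 0 for 8565 of 19937. The members' median was 0.02, beside -0.03 over all genes, and their values ran from -0.34 for Fads1 to 0.66 for Apoe. Adjusted p-values ran from 0.144 to 0.998. A log2FC under 0.1 in size with an unadjusted P over 0.1 was found for 16 of the 34 (47.1%), against 41.7% of all genes. That is a share near the background, and an interval that spans 0 does not show equal levels, since 95% intervals of single members reached down to -0.86 (Sqle) and up to 1.24 (Insig1). Fewer cells of a type and less RNA per cell cannot be told apart in such bulk RNA.

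**Figure D1:**
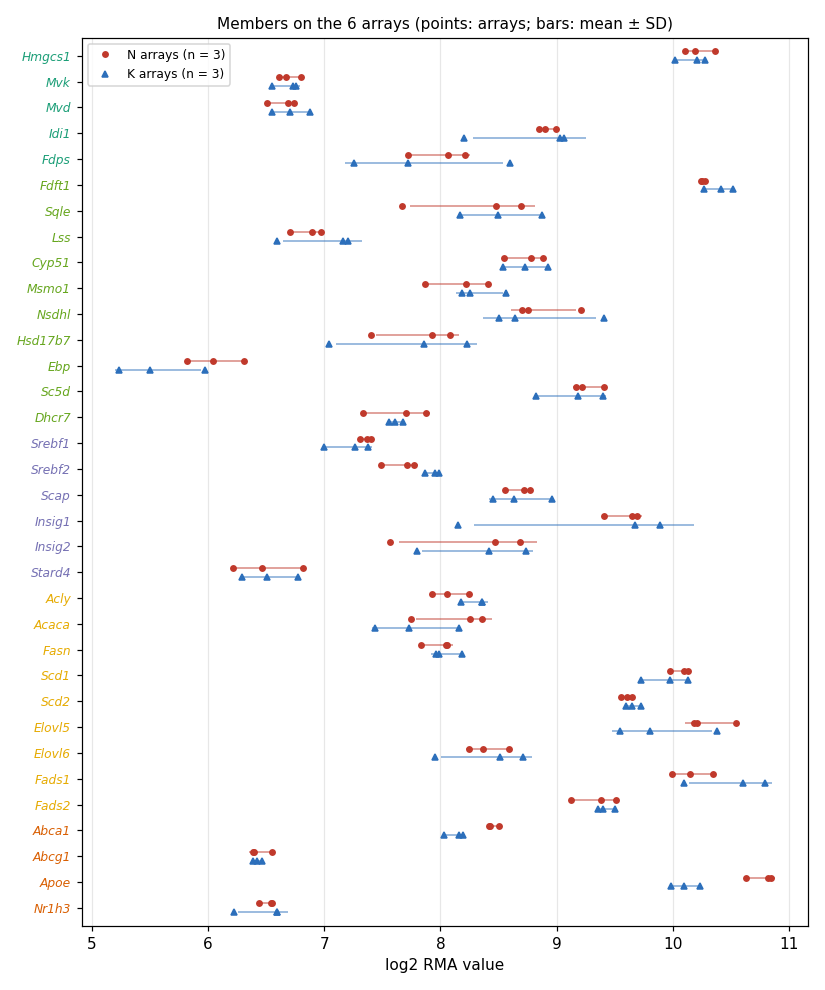
Log2 RMA values (x axis) of the 34 measured genes (rows, coloured by role) on the 3 N arrays (circles) and the 3 K arrays (triangles); bars give the mean ± SD. The groups are apart for Srebf2, Abca1 and Apoe, and K values spread widest for Insig1, from 8.15 to 9.89.

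The 5 measured genes of the mevalonate pathway had a median log2FC of 0.06. Hmgcs1, the cytosolic HMG-CoA synthase and a classical SREBP target, read 10.37, 10.19 and 10.11 on N replicates 1 to 3 and 10.20, 10.27 and 10.02 on K replicates 1 to 3. The N and K values interleaved, and the log2FC was 0.06 (SE 0.13, 95% interval -0.24 to 0.35, limma adjusted p = 0.941). Mvk, mevalonate kinase, had a log2FC of 0.01 (SE 0.12), and Mvd, which decarboxylates mevalonate diphosphate, -0.07 (SE 0.13). Idi1, the isopentenyl diphosphate isomerase, gave 0.15 (SE 0.22), with K replicate 3 at 8.21 below the other 5 arrays, which lay between 8.85 and 9.06.

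Fdps, which makes farnesyl diphosphate, was the least steady of these. It read 8.21, 8.07 and 7.72 on the N arrays and 7.72, 8.60 and 7.25 on the K arrays. The K arrays thus held both the highest and the lowest value, and the log2FC was 0.14 (SE 0.31).

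Of the 10 genes from squalene to sterol, 6 had a log2FC above 0 and 4 below, with a median of 0.01. Squalene is made by Fdft1 and oxidised by Sqle, a rate-limiting enzyme of the later pathway. Fdft1 had a log2FC of -0.14 (SE 0.12), and its N arrays spanned 0.04, between 10.24 and 10.28. Sqle read 8.69, 8.48 and 7.67 with N and 8.49, 8.88 and 8.17 with K, for a log2FC of -0.23 (SE 0.28), and N replicate 3 was the lowest array. Lss, which closes the ring to lanosterol, had a log2FC of -0.13 (SE 0.18).

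The enzymes that trim lanosterol to cholesterol split in the same way. The demethylation enzymes Cyp51, Msmo1, Nsdhl and Hsd17b7 had log2FC values of 0.00 (SE 0.15), -0.17 (SE 0.17), 0.03 (SE 0.25) and 0.09 (SE 0.30). Sc5d, the desaturase, and Dhcr7, the reductase of the last step, gave 0.13 (SE 0.17) and 0.02 (SE 0.15).

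Ebp, the sterol isomerase that shifts the ring double bond, was the exception in size. Its values were 6.31, 6.04 and 5.82 with N and 5.50, 5.97 and 5.24 with K. All 3 N arrays were above K replicates 1 and 3, but N replicate 3 was below K replicate 2. The log2FC was 0.49 (SE 0.21, 95% interval 0.02 to 0.96, adjusted p = 0.569), with an unadjusted limma P of 0.0441. With 1 array left out the log2FC lay between 0.32 and 0.69, and the unadjusted P was under 0.05 in 2 of those 6 fits, without N replicate 3 and without K replicate 2. It was under 0.05 in 9 of the 14 alternatives that held Ebp, and was 0.132 in the ordinary linear model. Ebp was also the dimmest member and the only one with a mean below the median cluster mean.

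**Figure D2:**
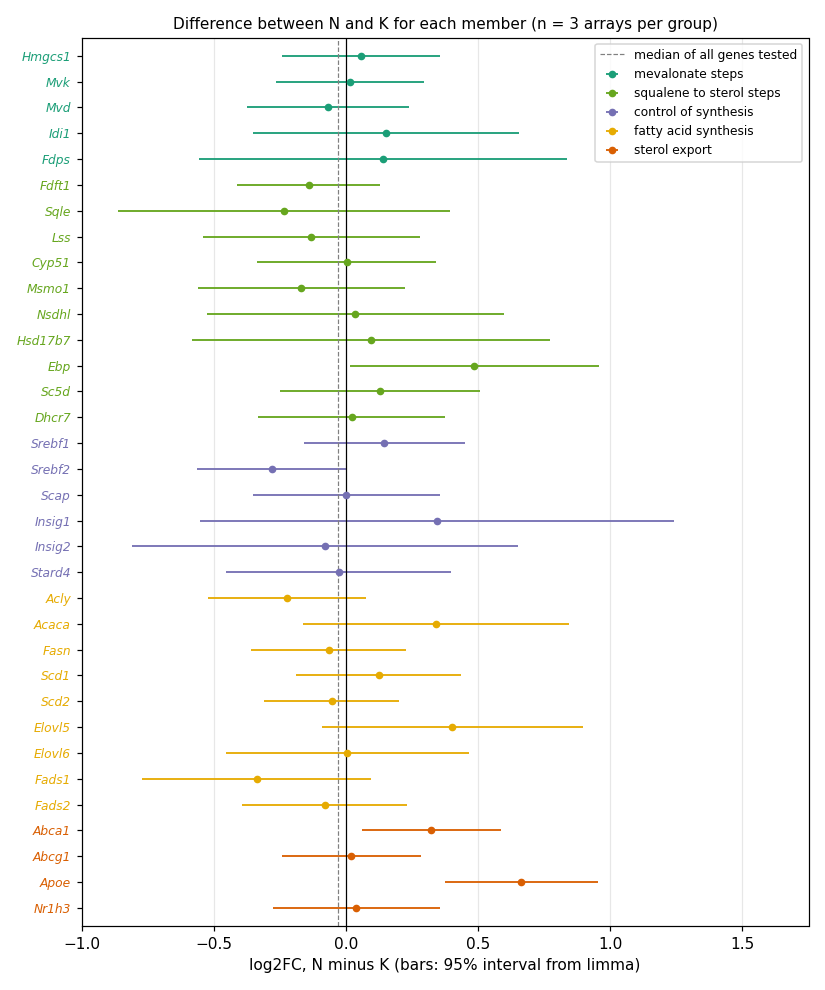
Difference between N and K (x axis, log2FC, N minus K) for each of the 34 genes, coloured by role, with 95% intervals from limma (n = 3 arrays per group); the dashed line is the median of all genes, -0.03. Intervals lie above 0 for Ebp, Abca1 and Apoe, and that of Srebf2 ends at 0.00.

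Among the 6 genes that control the pathway, Srebf2 stood lower with N. Srebf2, whose product mainly drives cholesterol synthesis, read 7.77, 7.49 and 7.71 on the N arrays and 7.95, 7.99 and 7.87 on the K arrays. Every N array was below every K array, by 0.10 at the closest (7.77 against 7.87). The log2FC was -0.28 (SE 0.12, 95% interval -0.57 to 0.00), with an unadjusted limma P of 0.0524 and an adjusted p of 0.589. The unadjusted P fell under 0.05 in the ordinary model (0.038), after quantile normalization (0.0265) and after cyclic loess normalization (0.031), and was 0.0525 to 0.2 with 1 array left out. In the other alternatives that kept all arrays, Srebf2 had an unadjusted limma P of 0.0519 to 0.0815, highest with the replicate block. Its adjusted p was 0.429 or above in all 15 alternatives.

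Srebf1, whose products mainly drive fatty acid synthesis, read 7.40, 7.31 and 7.37 with N and 7.00, 7.27 and 7.37 with K. Only K replicate 1 stood apart, on the low side, and the log2FC was 0.14 (SE 0.13, 95% interval -0.16 to 0.45, limma adjusted p = 0.825). Scap, the escort of both precursors, had a log2FC of 0.00 (SE 0.16). Stard4, which moves cholesterol between membranes, had -0.03 (SE 0.19).

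The Insig paralogs, which retain Scap, varied more between arrays than between groups. Insig1 read 9.65, 9.69 and 9.41 with N and 8.15, 9.89 and 9.67 with K. K replicate 1 was over 1 log2 unit below the other 5 arrays, the SD of K was 0.95, and the log2FC of 0.34 (SE 0.39, limma adjusted p = 0.861) turned to -0.20 without that array. Insig2 read 8.68, 8.47 and 7.56 with N and 7.80, 8.41 and 8.74 with K. N replicate 3 was its lowest array, and the log2FC of -0.08 (SE 0.32, adjusted p = 0.968) turned to 0.26 without it.

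The 9 genes of fatty acid synthesis had a median log2FC of -0.05, with 4 above 0 and 5 below. Fasn, the fatty acid synthase, read 8.06, 8.04 and 7.83 with N and 7.96, 8.19 and 7.98 with K. Its groups overlapped, with a log2FC of -0.07 (SE 0.13, 95% interval -0.36 to 0.23, limma adjusted p = 0.925). Acly, which makes cytosolic acetyl-CoA from citrate, had a log2FC of -0.22 (SE 0.13). Acaca, the acetyl-CoA carboxylase of the cytosol, had 0.34 (SE 0.22).

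The stearoyl-CoA desaturases Scd1 and Scd2, neighbouring paralogs that make monounsaturated fatty acids, were both steady. Scd1 read 10.13, 9.98 and 10.09 with N and 10.13, 9.98 and 9.73 with K, so that only K replicate 3 lay apart, and the log2FC was 0.12 (SE 0.14, 95% interval -0.19 to 0.44). Scd2 read 9.61, 9.55 and 9.65 with N and 9.65, 9.59 and 9.73 with K, for a log2FC of -0.05 (SE 0.11, 95% interval -0.31 to 0.20). All 6 Scd2 values spanned 0.17. How far the probes tell the paralogs apart was not tested.

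Elongation and desaturation of longer chains gave the highest and the lowest log2FC of this role. Elovl5, an elongase of polyunsaturated fatty acids, read 10.20, 10.18 and 10.55 with N and 9.81, 10.38 and 9.54 with K. K replicate 2 alone reached into the N range, and the log2FC was 0.40 (SE 0.22, limma adjusted p = 0.669), with an unadjusted P of 0.0966. Fads1, the delta-5 desaturase of the same pathway, read 10.15, 9.99 and 10.34 with N and 10.60, 10.10 and 10.79 with K. Again K replicate 2 lay inside the N range, with a log2FC of -0.34 (SE 0.19, limma adjusted p = 0.688) and an unadjusted P of 0.112. Without K replicate 2 the values were 0.64 for Elovl5 (adjusted p = 0.184) and -0.54 for Fads1 (adjusted p = 0.205). Fads2, the delta-6 desaturase, had -0.08 (SE 0.14) and Elovl6, which elongates palmitate, 0.01 (SE 0.20).

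All 4 measured export genes had a log2FC above 0, against 8565 of 19937 genes, with a median of 0.18. For Abcg1 and Nr1h3 it was only 0.02 and 0.04. Apoe, which encodes the main apolipoprotein of the brain, read 10.63, 10.82 and 10.85 on the N arrays and 10.24, 9.98 and 10.09 on the K arrays. The lowest N value was 0.40 above the highest K value. The means were 10.77 ± 0.12 and 10.10 ± 0.13 (SD, n = 3 arrays each), and the log2FC was 0.66 (SE 0.13, 95% interval 0.37 to 0.95). The unadjusted limma P was 6.51e-04 and the adjusted p 0.144, so that Apoe did not pass over all genes. In the 15 alternatives the log2FC of Apoe lay between 0.57 and 0.73, with an unadjusted P under 0.05 in all 15 and an adjusted p from 0.127 to 0.473.

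Abca1, the pump that hands cholesterol to lipid-poor apolipoproteins, read 8.50, 8.43 and 8.42 with N and 8.19, 8.03 and 8.16 with K. The N arrays spanned 0.08 and all lay above the K arrays. The log2FC was 0.32 (SE 0.11, 95% interval 0.06 to 0.59, limma adjusted p = 0.486), with an unadjusted P of 0.0210. It lay between 0.27 and 0.36 in the 15 alternatives, with an unadjusted P under 0.05 in 12 of them, the exceptions being the fits that left out N replicate 1, N replicate 2 and K replicate 2 in turn. Abcg1, the related pump that loads larger lipoproteins, had a log2FC of only 0.02 (SE 0.12, 95% interval -0.24 to 0.28), and Nr1h3, which encodes a liver X receptor, 0.04 (SE 0.14, 95% interval -0.28 to 0.36).

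Markers of astrocytes, the main source of Apoe in the brain, are given beside it. Of the 11 astrocyte markers, 9 had a log2FC above 0, against 8565 of 19937 genes, and 2 below, S100b (-0.47) and Acsbg1 (-0.05). Their median was 0.26. At an unadjusted P under 0.05, 5 were higher with N and 0 lower, where 4.64% of all genes were higher and 3.89% lower. The 5 were Gfap, Aqp4, Slc1a2, Aldh1l1 and Aldoc, and 1 of the 11, Gfap, passed over all genes (log2FC 1.66, SE 0.21, limma adjusted p = 0.0358). Gfap passed in 5 of the 15 alternatives, with adjusted p-values of 0.0611 to 0.145 with any 1 array left out, 0.0516 after quantile normalization, 0.0517 after cyclic loess, 0.059 with arrays centred on the median and 0.486 in the ordinary linear model. The summed level of the 11 markers was 12.97 to 13.13 on the N arrays and 12.62 to 12.75 on the K arrays (log2), without overlap. That sum gives most weight to the brightest markers, above all Slc1a3, at means of 11.15 with N and 10.99 with K (log2FC 0.15). A single marker, Gjb6, was among the dimmest 25% of clusters. The part of these cells in the Apoe and Abca1 values was not tested. Microglia also make Apoe, and their 9 measured markers had 0 at an unadjusted P under 0.05 in either direction, with summed levels of 9.19 to 9.23 with N and 9.16 to 9.42 with K. All of the 9 except Cx3cr1 and Trem2 had a mean below the median cluster mean of 6.34, and so dim a cluster may not show a change. The 11 oligodendrocyte markers also had 0 at that P, with sums of 10.91 to 11.13 with N and 10.99 to 11.20 with K. The 7 precursor markers summed to 13.65 to 13.76 with N and 13.49 to 13.69 with K. At that P, 2 were higher (Vim with a log2FC of 0.44 and Prom1 with 0.40) and 1 lower (Nes, -0.53). Fabp7, the brightest of the 7 at means of 12.81 with N and 12.82 with K, weighs most in that sum. Of 8 neuronal markers, 2 were higher (Snap25 with a log2FC of 0.81 and Tubb3 with 0.47) and 1 lower (Map2, -0.32). Their summed level was 11.13 to 11.22 with N and 11.37 to 11.45 with K, without overlap. That sum is mostly Map2, by far the brightest of the 8 at means of 10.84 with N and 11.17 with K. It therefore does not describe the list as a whole. Of 6 choroid plexus markers 1 was lower, while the 6 endothelial and the 6 pericyte and fibroblast markers had 0 in either direction.

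Among the 15 measured member enzymes of cholesterol synthesis, the array on which a gene was highest or lowest followed a pattern. The pattern was picked out after the values were seen. K replicate 2 was the highest array for 7 of the 15 (46.7%), namely Idi1, Fdps, Fdft1, Sqle, Cyp51, Msmo1 and Nsdhl, against 11.9% of all genes and 14.8% of the genes brighter than the dimmest enzyme. K replicate 3 was the lowest for 7 (46.7%), namely Hmgcs1, Mvk, Idi1, Fdps, Nsdhl, Hsd17b7 and Ebp, against 17.1% and 22%. Lss ran the other way and was lowest on K replicate 2. Pmvk, Tm7sf2 and Lbr, cholesterol synthesis genes of a further list given below, are not among the 15. None of them was highest on K replicate 2 or lowest on K replicate 3. Pmvk was highest on N replicate 1 and lowest on K replicate 1, and Tm7sf2 and Lbr were lowest on K replicate 2. Within the K group, though, Pmvk was highest on replicate 2, at 5.57, 5.95 and 5.82 on replicates 1 to 3. K replicate 2 was the highest array for 0 genes of that further list. K replicate 3 was the lowest for 3 of its genes (20%, against 17.1% of all genes), Ggps1 among them. The enzymes were read from the same 6 arrays, so these are counts over genes that do not vary independently.

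K replicate 2 lay above the gene's own mean over the 6 arrays for 14 of the 15 enzymes (93.3%), against 41.3% of all genes and 48.1% of the brighter genes, with a median deviation of 0.19. K replicate 3 lay below it for 12 (80%), against 40.6% and 46.9%, with a median of -0.14. The other medians were 0.06, 0.05 and -0.02 on N replicates 1 to 3 and -0.02 on K replicate 1. The spread among K arrays was thus wider than among N arrays, with a median SD over the 15 enzymes of 0.29 in K and 0.17 in N, beside 0.18 and 0.14 over all genes. K replicate 3 also had the highest array median (6.40, against 6.30 to 6.37) and the narrowest span between the 10th and 90th percentiles (4.85, against 4.89 to 5.14). After quantile normalization K replicate 2 was highest for 6 enzymes (40%, against 12.3% of all genes) and K replicate 3 lowest for 6 (40%, against 19.7%). After cyclic loess the counts were 5 (33.3%, against 14.7%) and 6 (40%, against 21.2%). K replicate 2 lay above the mean for 14 of 15 under each, against 45.7% of all genes after quantile normalization and 50.6% after cyclic loess. K replicate 3 lay below it for 9 (60%) under each, against 47.2% and 51% of all genes, a share nearer the background than in the deposited values.

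**Figure D3:**
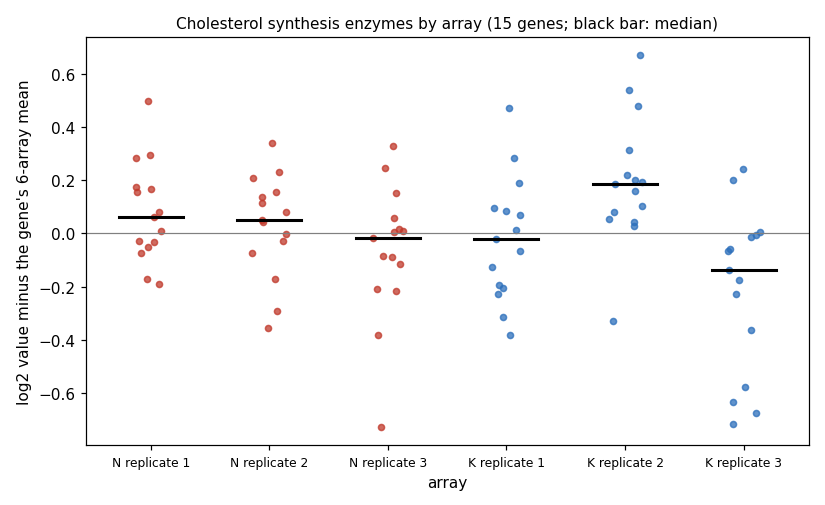
Deviation of each of the 15 member enzymes of cholesterol synthesis from its own mean over the 6 arrays (y axis, log2), by array (x axis), with the median as a black bar. The medians of K replicate 2 (0.19) and K replicate 3 (-0.14) lie farthest apart, although both arrays are of the K group.

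Leaving out K replicate 2 widened the differences of several members. Besides Elovl5 and Fads1, the unadjusted limma P then fell under 0.05 for Fdps (log2FC 0.51), Acaca (0.53) and Lss (-0.33), and that of Abca1 rose above 0.05. In all, 7 of the 34 members then had a P under 0.05, 5 higher and 2 lower with N, where 14.6% of all genes did, and their adjusted p-values were 0.146 or above. Over all clusters, K replicate 2 correlated at 0.963 to 0.973 with the N arrays, against 0.960 and 0.948 with K replicates 1 and 3. K replicate 3 had the lowest correlation with every other array, 0.940 to 0.948. The closeness of K replicate 2 to the N arrays was thus not particular to these members.

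Further genes of the same pathways were counted from lists drawn up by pathway. Of 15 measured genes of further synthesis steps (17 listed), 2 were higher with N at an unadjusted P under 0.05, where 4.64% of all genes were, and 1 lower, against 3.89%. The median log2FC was 0.11, and none passed over all genes. Me1, a malic enzyme that supplies NADPH for lipid synthesis, had a log2FC of 0.42 (SE 0.13, limma adjusted p = 0.386). The elongases of long saturated chains differed in sign, with 0.80 for Elovl7 (SE 0.29, adjusted p = 0.494) and -0.72 for Elovl1 (SE 0.20, adjusted p = 0.332). The unadjusted P was under 0.05 in 11 of 15 alternatives for Elovl7 and in every alternative run for Me1 and Elovl1.

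Of 18 measured genes of sterol uptake, transport and turnover (20 listed), 2 were higher with N at an unadjusted P under 0.05, against 4.64% of all genes, and 4 lower, against 3.89%. The median log2FC was -0.10. Of the 18, 2 had all N arrays above the K arrays, against 5.78% of all genes, and 4 below, against 7.55%. These are the same 6 genes, picked by their P on the same arrays, so the count adds nothing separate. Clu, which encodes the secreted lipid carrier clusterin (apolipoprotein J), rose with N relative to K. It read 8.36, 8.13 and 8.97 on the N arrays and 6.99, 7.07 and 7.01 on the K arrays. The K arrays spanned 0.08 and were all more than 1 log2 unit below the lowest N array. The log2FC was 1.46 (SE 0.20, 2.75-fold, limma adjusted p = 0.0437). The adjusted p passed 0.05 in 5 of the 15 alternatives, all with an unadjusted P under 0.05, and lay between 0.0761 and 0.191 with any 1 of the 6 arrays left out. Lcat, which esterifies cholesterol on lipoproteins, had a log2FC of 0.29 (SE 0.12, adjusted p = 0.553) and an unadjusted P under 0.05 in 10 of the 15 alternatives.

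The 4 genes lower with N were Vldlr, Lrp1, Npc1 and Lpcat3. Vldlr and Lrp1, receptors for Apoe-bearing particles, had log2FC values of -0.45 (SE 0.15, limma adjusted p = 0.435) and -0.26 (SE 0.11, adjusted p = 0.577). Npc1, which moves cholesterol out of lysosomes, had -0.27 (SE 0.11, adjusted p = 0.564). Lpcat3, which puts polyunsaturated chains into phospholipids, had -0.39 (SE 0.13, adjusted p = 0.448). None of the 4 passed over all genes. The unadjusted P was under 0.05 in 15 of the 15 alternatives for Vldlr, 14 for Lpcat3, 8 for Npc1 and 5 for Lrp1, and under the replicate block it was 0.0779 for Npc1 and 0.0864 for Lrp1. With 1 array left out, Lrp1 lost it each time, Npc1 each time except without K replicate 2, and Lpcat3 without N replicate 3, so that from 1 to 3 of the 4 kept it.

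**Figure D4:**
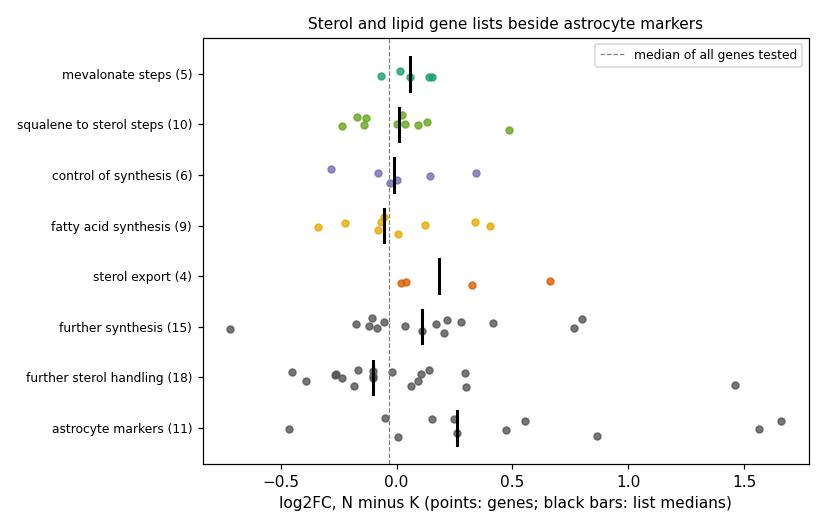
Difference between N and K (x axis, log2FC, N minus K) of each gene (points) in the 5 roles, the further synthesis and sterol handling lists and the astrocyte markers, with list medians as black bars and the number measured in parentheses; the dashed line is the median of all genes. The synthesis roles centre near 0, and the points farthest right are Clu among the sterol handling genes and Gfap and Aqp4 among the astrocyte markers.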

How the data were processed

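RNA of neurospheres grown with norepinephrine (N) or potassium chloride (K) was hybridised to Affymetrix Mouse Gene 1.0 ST arrays, 3 per group. The values are log2 values that the authors made from the scanned images in Partek Genomics Suite with RMA (background correction, normalization between arrays, 1 summary per transcript cluster) and deposited; per the labels' processing notes these tools were used, and their versions are not given in the sources used here. The values were used as deposited. The RNA-Seq data of the study were not analysed here.

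Of 34760 clusters, 21640 carried exactly 1 gene symbol, 1321 several and 11799 none. The 21640 stood for 19937 genes, and the cluster with the highest mean over the 6 arrays was taken for each. All 34 member IDs were found in RefSeq's GRCm38.p6 table, with 0 symbols changed. The difference N minus K was fitted for every gene by lmFit and eBayes of limma 3.58.1 (R 4.3.3), without covariates and with 4 residual and 4.59 prior degrees of freedom. The paper names a P and a log2FC without a test, so limma was chosen. P-values were adjusted over all genes by Benjamini-Hochberg, with a threshold of 0.05, and intervals are 95% intervals. The code was tested on simulated data. Precision is limited by having 3 arrays a group.

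Members were named array by array where the unadjusted P was under 0.05 or the groups did not overlap, and for Insig1, Insig2, Scd1, Scd2, Srebf1, Srebf2, Hmgcs1, Fasn, Abca1 and Apoe whatever their values; Fdps, Sqle, Elovl5 and Fads1 were added after their values were seen. Genes of the 2 further lists were named at an unadjusted P under 0.05. The members and lists were chosen with earlier results of these data known. Marker lists covered astrocytes, precursors, oligodendrocytes, microglia, neurons, choroid plexus, endothelial cells and pericytes with fibroblasts, and a list's summed level is the log2 of the sum of its linear values. In 15 alternatives, the replicate number entered as a block, moderation was dropped (ordinary linear model) or run with trend and robust, clusters below the median were removed, values were renormalized by quantiles, by cyclic loess or by centring each array, a gene's clusters were averaged or genes with several clusters removed, and each array was left out in turn. The array on which enzymes were highest or lowest was also counted after both renormalizations, an alternative chosen after seeing the data. Plots were made in Python 3.11.15 with matplotlib 3.10.9.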

Additional observations from a re-analysis of the deposited data

How the results depend on the processing

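The count of members at an adjusted p under 0.05 was 0 in the 15 alternatives, and the members' median log2FC lay between -0.02 and 0.06. The count at an unadjusted P under 0.05 was 3 as reported and ranged from 1 to 7 with 1 array left out: 1 without N replicate 1 and 1 without N replicate 2 (Apoe in each), and 7 without K replicate 2. Deviations of same-numbered arrays correlated at 0.0429 to 0.121 over the 3 pairs, and those of differently numbered arrays at -0.144 to 0.113. These deviations sum to 0 within each group of 3 arrays, so the values cannot settle whether the replicate numbers pair the arrays. With the number as a replicate block, 4 members had a P under 0.05 (Fads1 the added one, lower with N) and 0 passed adjustment, and over all genes 41 passed, against 31. The split of members at P under 0.05 was 3 higher and 0 lower as reported, 3 and 1 after quantile and after cyclic loess normalization, and 2 and 1 in the ordinary linear model, Srebf2 being the lower one in each. Over all genes, 31 passed adjustment as reported (24 higher, 7 lower), 12 after quantile normalization (7 and 5), 12 after cyclic loess (8 and 4), 3 with arrays centred on the median (2 and 1) and 1 in the ordinary linear model (1 and 0), and 0 to 21 with 1 array left out (0 for each of N replicate 1, N replicate 2 and K replicate 1, then 4 for N replicate 3, 9 for K replicate 3 and 21 for K replicate 2). The causes were not tested. Among 506 values of single members under the alternatives, 50 changed sign, in 20 members and never where a P under 0.05 was reached on either side. The median of all genes moved by under 0.1 in each alternative. The array counts of the synthesis enzymes kept within 1.5 times of the reported values under both renormalizations. With 3 arrays per group, the SE of a member's log2FC was 0.11 to 0.39.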

Other observations

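Acaca, Fdft1 and Idi1 each had a second cluster under the same symbol, which the values above do not use. For Acaca the second cluster gave a log2FC (N minus K) of 0.20, beside 0.34. For Fdft1 it gave 0.03, beside -0.14. For Idi1 it read 8.85, 7.04 and 8.11 on the N arrays and 7.68, 8.55 and 8.26 on the K arrays, a log2FC of -0.16, beside 0.15 for the cluster used, so the clusters of Idi1 and of Fdft1 differed in sign, within their spread.

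Mir33, which lies within Srebf2 at chr15:82198122-82198190 (GRCm38.p6) and encodes a miRNA known in mouse to repress Abca1, was looked up after the values of Srebf2 and Abca1 were seen. Its mature form, from RefSeq, is shown with the seed (bases 2 to 8) in capitals.
mmu-miR-33-5p: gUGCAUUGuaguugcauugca

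The Mir33 cluster read 3.48, 3.43 and 3.62 on the N arrays and 3.70, 3.66 and 3.85 on the K arrays. The N arrays all lay below the K arrays, as for Srebf2 and for 7.55% of all genes. The log2FC was -0.22 (SE 0.12, limma adjusted p = 0.675), with an unadjusted P of 0.101. Its mean was at the 8.27th percentile of all clusters, and whether so dim a cluster reports the miRNA, its precursor or background was not tested.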
